A study of Homo sapiens with 5 samples.

Results

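The cytosolic heat shock proteins and co-chaperones described here are 10 genes: HSPA1A and HSPA1B, HSPA8, HSPH1, HSP90AA1 and HSP90AB1, DNAJB1 and DNAJA1, BAG3, and HSPB1. They were listed by symbol for a rule that was chosen by the values of HSPA1A in these same cells, which were higher at 4 than at 1 day post injection (dpi) while other early-stress genes were lower. All 10 were among the 15028 genes kept from the 5 plates, after spike-ins and genes seen in fewer than 10 wells were left out. The comparison of 4 with 1 dpi is therefore given for the members as a description, with no test.

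The data are single-cell transcriptomes of SW480, an established human colorectal cancer line. The paper describes the cells as GFP transfected, and they were injected into zebrafish embryos. Tumors were dissected, pooled and dissociated with liberase at body temperature for minutes, and live cells (DAPI negative) were sorted singly into plates of 384 wells for SORT-seq, which counts 1 tag per transcript at its 3′ end with unique molecular identifiers (UMIs). The groups are parental SW480 tumors at 1 dpi (3 plates, libraries 6, 7 and 8) and at 4 dpi (2 plates, libraries 10 and 11); both share the line, the host and the handling, and in the study's design the later time holds cells that were not cleared. Nothing in the labels says if each plate had its own tumors, so the spread between plates may be technical. The cells are malignant cells in an ectopic host, and no uninjected SW480 culture was analysed here.

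A cell passed with more than 2000 genes and under 25% mitochondrial UMIs, which left 228, 142, 163, 132 and 161 cells in plates 6, 7, 8, 10 and 11, or 826 in all (533 at 1 dpi and 293 at 4 dpi). These cells had medians of 26751, 32064, 22660, 22172 and 16630 nuclear UMIs per cell, so the plates of 4 dpi were on the whole shallower, plate 11 most of all. The 5 plates use the same 384 well barcodes by design. Libraries 6, 7 and 10 were sequenced on 1 flow cell and 8 and 11 on another. The tumor line label was checked against markers: 9 of 10 colon epithelial markers were in the table (KRT20 was not) and summed to between 4840.2 and 5950.1 on a counts-per-million scale over the UMIs of a plate's passing cells (CPM), led by KRT8. Leukocyte markers summed to between 5.01 and 11.7 CPM, with CD68 or CD14 highest and PTPRC, CD3E, MS4A1 and MPO absent from the table. Stromal, endothelial and red cell markers summed to between 7.86 and 21.96 CPM, with HBA1 or COL1A1 highest.

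Heat shock proteins are molecular chaperones that bind unfolded polypeptides. When unfolded protein accumulates, the transcription factor HSF1 trimerizes, binds heat shock elements in promoters and raises transcription of inducible chaperones such as HSPA1A, HSPA1B, HSPA6, HSPH1, DNAJB1 and BAG3, whereas HSPA8 and HSP90AB1 are made constitutively in growing cells. HSP70 proteins work with J-domain partners (HSP40, the DNAJ proteins) that stimulate their ATPase and with nucleotide exchange factors (HSPH1, BAG3), and hand clients on to HSP90. Tumor cells often carry raised chaperone levels, and warming or enzymatic dissociation of tissue can also induce heat shock genes.

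Promoters of the HSP70 genes and of DNAJB1 are shown. They come from RefSeq (GRCh38.p14, 250 bases before to 50 after a transcript start, read 5′ to 3′ on the gene's strand). Capitals mark GAANNTTC or TTCNNGAA, pairs of the unit of the heat shock element facing inward or outward; each reads the same on both strands, and matches may overlap. For DNAJB1, which has 3 listed starts, the window with the most matches is shown.
HSPA1A, chr6:31815293-31815592, plus strand: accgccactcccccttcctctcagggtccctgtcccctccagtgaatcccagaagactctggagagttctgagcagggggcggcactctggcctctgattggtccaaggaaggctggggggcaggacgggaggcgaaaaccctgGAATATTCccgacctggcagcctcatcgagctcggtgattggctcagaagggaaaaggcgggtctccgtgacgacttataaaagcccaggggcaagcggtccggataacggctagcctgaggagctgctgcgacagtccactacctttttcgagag
HSPA1B, chr6:31827488-31827787, plus strand: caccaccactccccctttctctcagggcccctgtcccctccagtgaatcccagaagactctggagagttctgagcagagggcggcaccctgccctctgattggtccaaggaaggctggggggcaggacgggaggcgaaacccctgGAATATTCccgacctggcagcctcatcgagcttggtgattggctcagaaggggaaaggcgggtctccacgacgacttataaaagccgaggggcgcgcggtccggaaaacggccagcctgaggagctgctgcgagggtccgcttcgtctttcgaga
HSPA8, chr11:123062087-123062386, minus strand: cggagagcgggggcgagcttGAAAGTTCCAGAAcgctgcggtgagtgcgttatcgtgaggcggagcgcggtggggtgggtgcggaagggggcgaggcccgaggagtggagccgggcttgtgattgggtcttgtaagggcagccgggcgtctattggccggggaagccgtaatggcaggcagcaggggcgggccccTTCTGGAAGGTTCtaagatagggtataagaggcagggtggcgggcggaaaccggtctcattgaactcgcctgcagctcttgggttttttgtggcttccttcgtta
DNAJB1, chr19:14518348-14518647, minus strand: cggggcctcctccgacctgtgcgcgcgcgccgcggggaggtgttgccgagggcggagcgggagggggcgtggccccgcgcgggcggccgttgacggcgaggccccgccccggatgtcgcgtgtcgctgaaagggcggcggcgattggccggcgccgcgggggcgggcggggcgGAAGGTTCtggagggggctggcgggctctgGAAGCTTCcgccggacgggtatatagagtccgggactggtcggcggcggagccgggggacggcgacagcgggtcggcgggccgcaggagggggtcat

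All 10 members matched the promoter table, with 15 windows among them. A match was present in 9 of these 15 windows, belonging to 8 of the 10 genes, against 13.5% of 35116 windows of the same length; HSPH1 and BAG3 had none in their listed windows. The HSPA1A and HSPA1B windows held the same match, at -105 from the start in HSPA1B and 1 base further in HSPA1A, and shared 277 of 299 bases (92.6%) when offset by 1 base. These are matches of letters, not measured binding.

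HSPA1A, the main stress-inducible HSP70, was rare. Its summed level was 10.1, 18.8 and 20.3 CPM in plates 6, 7 and 8 (1 dpi) and 34.6 and 66.5 CPM in plates 10 and 11 (4 dpi), or 16.4 ± 5.48 (SD, n = 3) at 1 dpi and 50.5 ± 22.6 (SD, n = 2) at 4 dpi. Both plates of 4 dpi lay above all 3 plates of 1 dpi, plate 11 highest, and the fitted log2 difference was 1.63; these are the values that the rule was chosen by. In cells thinned to 5000 UMIs it was 0.83. Over all genes the same fit called 13.4% higher and 14.2% lower at 4 dpi, and nothing is read from the members against those shares. Within a flow cell, plate 10 was above plates 6 and 7, and plate 11 above plate 8. The difference rested on 1 cell in each plate of 4 dpi. In plate 10, 81 of 137 HSPA1A UMIs (59.1%, exact 95% interval 50.4 to 67.4%, counting error only) came from the cell in well 278. In plate 11, 210 of 252 (83.3%, 78.1 to 87.7%) came from well 277. The top cell of plates 6, 7 and 8 held 9.21, 28.7 and 32.99% of its plate's UMIs.

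With the top cell of every plate left out, a choice made after seeing the data, HSPA1A stood at 9.22, 13.6 and 13.7 CPM in plates 6, 7 and 8 (1 dpi) and 14.3 and 11.2 CPM in plates 10 and 11 (4 dpi). The plates of the 2 times then overlapped, and the log2 difference was 0.07, or 0.27 without the 2 top cells of each plate. Within flow cells the direction then differed: plate 10 lay above plates 6 and 7, and plate 11 lay below plate 8. The remaining levels of HSPA1A at 1 and 4 dpi cannot be told apart here.

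The share of cells with a UMI of HSPA1A depends on depth, and a cell with 0 UMIs may still hold the transcript. A UMI was found in 13.2% (exact 95% interval 9.06 to 18.2%), 19.01% (12.9 to 26.4%) and 15.3% (10.2 to 21.8%) of cells in plates 6, 7 and 8, and in 18.2% (12.01 to 25.8%) and 15.5% (10.3 to 22.1%) in plates 10 and 11. With every cell thinned to 5000 nuclear UMIs, shallower cells being dropped, the shares in percent were 5.43, 6.47 and 5.03 in plates 6, 7 and 8 (1 dpi) and 9.52 and 5.84 in plates 10 and 11 (4 dpi). The shares of both times overlapped on either scale. The median cell of every plate had 0 UMIs, and the 10% of cells with most HSPA1A held between 88.1 and 96.8% of its UMIs. Among wells with 500 genes or fewer, which serve as a background, HSPA1A gave 1 UMI in plate 8 and 1 in plate 11 and 0 in the other plates; such wells numbered at most 187 in these 2 plates, with a median depth over the plates of 94 to 168 nuclear UMIs, so the shares are not depth matched.

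Over the 5 plates, 5 cells had 20 or more HSPA1A UMIs: wells 252 and 134 of plate 7, well 340 of plate 8, well 278 of plate 10 and well 277 of plate 11. These cells were picked out by their HSPA1A after the values were seen, so what follows describes 5 cells and tests nothing. HSPA1B was 8.13, 37.97, 69.8, 67.5 and 71.2 times as high as in the rest of the plate in these cells, as high in well 340 of 1 dpi as in the wells of 4 dpi. In well 278, relative to the rest of its plate per nuclear UMI, BAG3 was 37.6 times as high, DNAJB1 24.2 times, HSPH1 12.9 times, DNAJA1 8.53 times and HSP90AA1 6.81 times. In well 277 the same genes stood at 16.5, 14.6, 12.9, 10.96 and 10.1 times. In both cells all 5 were the highest of any passing cell in the plate. HSPA8, the constitutive HSP70, was 1.49 times the rest of the plate in well 278 and 5.20 times in well 277. At 1 dpi, well 340 had BAG3 at 12.1 and HSPH1 at 6.17 times, and DNAJB1 at 1.80 times, while well 252 had DNAJB1 at 3.23, BAG3 at 2.39 and HSPH1 at 1.39 times, and well 134 DNAJB1 at 1.43, BAG3 at 3.41 and HSPH1 at 2.74 times.

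HSPA6, an HSP70 that is close to silent without stress, marked some of these cells; it and the other genes of this paragraph were chosen after their values were seen. It gave 24 of the 29 HSPA6 UMIs of plate 7 in well 134, 60 of the 68 of plate 8 in well 340 and 39 of the 43 of plate 10 in well 278, but 3 of 20 in well 277 and 0 of 29 in well 252. The immediate-early gene EGR1 was 67.7 times as high as in the rest of its plate in well 278, and FOS 20.2 times, whereas in well 277 FOS was 0.116 times the rest. The ER chaperone HSPA5 lay between 0.861 and 2.19 times in the 5 cells. Depth and RNA quality differed among them: they held 57127, 34261, 20702, 35836 and 45996 nuclear UMIs and 14.9, 5.10, 5.59, 13.6 and 4.33% mitochondrial UMIs in the order given. Well 277 was deeper than 90.7% of the cells of its plate, and for wells 252, 134, 340 and 278 the share was 88.7, 56.3, 45.4 and 74.2%. By mitotic-gene UMIs per 10000 nuclear UMIs, wells 252, 134, 340, 278 and 277 ranked above 71.1, 97.9, 48.5, 87.9 and 99.4% of the cells of their plates. No doublet caller was run, and a doublet was not tested for these cells.

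**Figure D1:**
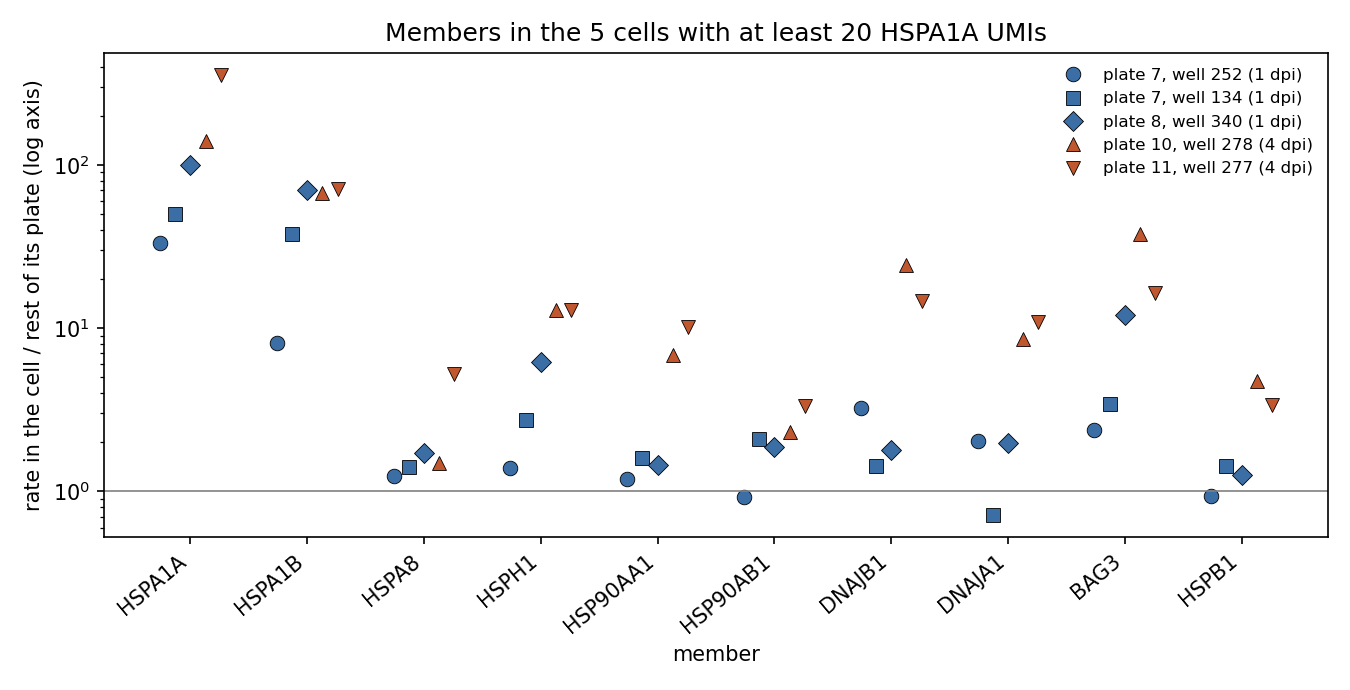
Each member's rate in the 5 cells with at least 20 HSPA1A UMIs, as a ratio to the rest of the cell's plate on a log axis (blue 1 dpi, orange 4 dpi; the line is 1). The cells of 4 dpi are above the line for every member, and BAG3 reaches 37.6 in well 278.

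HSPA1B is a near-identical copy of HSPA1A, and reads of the 2 genes may be shared, so their split is uncertain. Its level was 12.1, 20.6 and 32.8 CPM in plates 6, 7 and 8 (1 dpi) and 27.01 and 49.6 CPM in plates 10 and 11 (4 dpi). The groups overlapped, plate 8 lying above plate 10, with a log2 difference of 0.82 that was 0.17 without the top HSPA1A cells. Leaving out 1 plate gave values from 0.33 (without plate 11) to 1.22 (without plate 8). The 2 genes were often counted in different cells: both had a UMI in 11, 14, 13, 8 and 13 cells of plates 6, 7, 8, 10 and 11, HSPA1A alone in 19, 13, 12, 16 and 12 and HSPA1B alone in 35, 31, 27, 24 and 35.

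HSPA8, the constitutive HSP70 that folds new proteins, was among the most abundant members, at 1607, 1541 and 1629 CPM in plates 6, 7 and 8 (1 dpi) and 1297 and 1333 CPM in plates 10 and 11 (4 dpi). The plates of 4 dpi lay below all plates of 1 dpi, with a log2 difference of -0.30. It was found in 98.2 to 100% of cells, with a median between 12.1 and 16.2 per 10000 nuclear UMIs. HSPH1 (HSP110), the exchange factor of HSP70, was at 297.72, 257 and 285 CPM in plates 6, 7 and 8 (1 dpi) and 225 and 236 CPM in plates 10 and 11 (4 dpi), also lower in both plates of 4 dpi (log2 -0.31, or -0.49 without the top HSPA1A cells, which held 11.8 and 15.3% of its UMIs in plates 10 and 11). With a mitochondrial maximum of 15% the log2 difference of HSPH1 was -0.16.

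The HSP90 genes encode the chaperones that mature kinases and receptors. HSP90AA1, the more inducible of them, was at 1997, 2117 and 2191 CPM in plates 6, 7 and 8 (1 dpi) and 1748 and 2010.0 CPM in plates 10 and 11 (4 dpi). Its groups overlapped, plate 11 lying above plate 6, with a log2 difference of -0.19 and of -0.32 without the top HSPA1A cells, where plate 11 stood at 1782. HSP90AB1 was at 1634, 1485 and 1433 CPM in plates 6, 7 and 8 (1 dpi) and 1349.8 and 1335 CPM in plates 10 and 11 (4 dpi); both plates of 4 dpi were the lowest, and plate 6 was the highest (log2 -0.20).

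Among the J-domain partners, DNAJB1, which works with inducible HSP70 in disaggregation, stood at 371, 433 and 432 CPM in plates 6, 7 and 8 (1 dpi) and 255 and 265.99 CPM in plates 10 and 11 (4 dpi), or 412 ± 35.4 (SD, n = 3) at 1 dpi and 261 ± 7.43 (SD, n = 2) at 4 dpi. All 3 plates of 1 dpi were above both plates of 4 dpi, with a log2 difference of -0.68 that was -0.95 without the top HSPA1A cells; well 278 held 20.1% and well 277 17.1% of their plates' DNAJB1. With cells thinned to 5000 UMIs it was -0.46. DNAJA1, the more constitutive partner, was at 338.37, 321 and 329 CPM in plates 6, 7 and 8 (1 dpi) and 262 and 273 CPM in plates 10 and 11 (4 dpi), again with no overlap (log2 -0.33).

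BAG3, a co-chaperone that takes HSP70 clients to autophagy, was at 41.6, 46.1 and 52.5 CPM in plates 6, 7 and 8 (1 dpi) and 33.3 and 49.1 CPM in plates 10 and 11 (4 dpi), with overlapping groups. Its log2 difference was -0.20, -0.52 without the top HSPA1A cells and 0.13 with a mitochondrial maximum of 15%, so its direction is not settled. HSPB1 (HSP27), a small heat shock protein that holds unfolded clients without ATP, was at 161, 181 and 170.4 CPM in plates 6, 7 and 8 (1 dpi) and 292 and 220.1 CPM in plates 10 and 11 (4 dpi). Both plates of 4 dpi lay above all plates of 1 dpi, with a log2 difference of 0.56 that was 0.51 without the top HSPA1A cells, so its higher level did not rest on them. The difference was 0.33 without plate 10 and 0.75 without plate 11, so its size depended on which plate of 4 dpi was kept. Scaled to the ERCC spike-ins, the median of all genes was -0.20 on the log2 scale at 4 dpi; on that scale HSPB1 stood at 0.43, HSPA1A at 1.27, HSPA8 at -0.50 and DNAJB1 at -0.88, so HSPA1A and HSPB1 lay above that shift and HSPA8 and DNAJB1 below it. HSPA1B (0.56) lay above it too, and HSPH1, HSP90AA1, HSP90AB1, DNAJA1 and BAG3 below it. UMIs per spike-in UMI were 107, 119 and 112 in plates 6, 7 and 10 but 55.9 and 49.5 in plates 8 and 11. Spike-in scaling therefore carries a difference that follows the flow cell, which widens the spread within each time.

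Genes of other lists were counted between 1 and 4 dpi with the fit over all genes (edgeR, adjusted p below 0.05), which called 13.4% higher and 14.2% lower; no list was tested as a group, and several counts are near these shares. Of 14 other cytosolic heat shock genes tested, 1 was higher (HSPA2, log2 0.94, adjusted p = 0.018) and 3 were lower, led by HSPA14 (log2 -0.60). Of 22 HSP70 and HSP90 co-chaperones, 4 were higher, led by UNC45A (log2 0.81), and 5 lower, led by BAG2 (log2 -0.53). Of 14 genes of HSF regulation and response, 5 were higher, led by HSBP1L1 (log2 0.96), and 2 lower, led by IER5 (log2 -0.56), a regulator of HSF1. Of the 14 TRiC and prefoldin subunits, which fold actin and tubulin, 3 were lower, led by CCT4 (log2 -0.42). Of 13 mitochondrial chaperones 4 were lower, led by GRPEL2 (log2 -0.72). Of 17 ER chaperones and unfolded protein response genes 8 were lower, led by CRELD2 (log2 -0.70), and XBP1 was higher (log2 0.30). Of 32 proteasome genes 8 were lower, led by PSMD12 (log2 -0.64), and 2 higher, led by PSMB6 (log2 0.33). The 34 immediate-early genes, whose lower level was part of the rule, are given by their median only. Mitotic genes stood apart, with 33 of 34 higher at 4 dpi, led by TOP2A (log2 1.69). List medians were 0.06, -0.01, 0.16, -0.11, -0.22, -0.21, -0.15, -0.21 and 1.00 in that order, against 0.00 over all genes. Among markers, 3 of 8 colon epithelial genes were lower, led by CDH1 (log2 -0.73), and EPCAM was higher (0.25), with a median of -0.38; COL1A1 was higher (2.14, adjusted p = 0.0014) and HBA1 lower (-1.17). With spike-in scaling, which carries the flow-cell difference given above, 2 genes passed in the whole table, so these calls depend on the scaling.

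Within plates, 8 of the 10 members passed as higher in cells with many mitotic transcripts. The 25% of cells of each plate with the highest share of 34 mitotic genes (57, 36, 41, 33 and 40 cells) were compared with the lowest 50%, with the plate as a block, so time and flow cell drop out and the rule's contrast was not used. Of the 10 members, 8 were higher (edgeR, adjusted p below 0.05) and HSP90AB1 and HSPB1 did not pass, while 8.71% of all 10381 genes tested were higher and 7.17% lower. HSP90AA1 was at 2906, 2702, 2899.9, 2792 and 3101 CPM (of nuclear UMIs from here on) in the mitotic-gene-high cells of plates 6, 7, 8, 10 and 11 and at 1813, 2077, 2066, 1544 and 1666 in the low cells. It was higher in all 5 plates (log2 0.66, SE 0.08, adjusted p = 8.0e-06). DNAJA1 was at 502, 363, 453, 430.4 and 413 against 286, 305, 249, 237 and 235, higher in 5 of 5 plates (log2 0.72, SE 0.10, adjusted p = 2.0e-05). HSPA1A was at 14.9, 29.7, 28.4, 99.4 and 222 against 7.63, 5.86, 26.2, 15.3 and 7.73 CPM, nearly level in plate 8 and far apart in plates 10 and 11 (log2 2.23, SE 0.39, adjusted p = 0.00039). In plates 10 and 11, wells 278 and 277 gave 81 of the 100 and 210 of the 232 HSPA1A UMIs of the mitotic-gene-high cells. These are the same cells on which the HSPA1A difference between the times rested. The HSPA1A value here is therefore not independent of the values that the rule was chosen by.

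The other members that passed were also higher in all 5 plates: HSPA1B (log2 1.17), BAG3 (0.72), HSPH1 (0.67), DNAJB1 (0.61) and HSPA8 (0.49), with adjusted p of at most 0.0021. HSP90AB1 (log2 0.21, adjusted p = 0.066) and HSPB1 (0.13, 0.48) missed the threshold, the former passing without plate 7 (log2 0.28, 0.02). DESeq2 called 8 members too. Without each plate's top HSPA1A cell, HSPA1A was still higher (log2 1.35, adjusted p = 0.00058) and BAG3 no longer passed (log2 0.43, 0.056). Mitotic-gene-high cells were deeper in plates 6, 8, 10 and 11 and about level in plate 7, with medians of 36904, 31680.5, 27290, 24602 and 24774 against 25305, 30999, 20731, 21034 and 15180 nuclear UMIs. Their median mitochondrial share was 11.8, 11.3, 10.6, 15.4 and 14.3% against 13.2, 11.01, 11.3, 9.65 and 10.1%, higher in plates 10 and 11 and lower in plates 6 and 8. In cells thinned to 5000 nuclear UMIs HSP90AA1 (log2 0.60), DNAJA1 (0.78), HSPH1 (0.73) and HSPA8 (0.39) passed, DNAJB1 (0.15, adjusted p = 0.59) and BAG3 (0.54, 0.23) did not, and HSPA1A and HSPA1B were too rare to be tested. Over the alternatives run, adjusted p was 1.4e-09 to 0.00035 for HSP90AA1, 4.4e-08 to 0.00062 for DNAJA1, 3.8e-07 to 0.032 for HSPA1A, 6.1e-06 to 0.59 for DNAJB1 and 0.00039 to 0.23 for BAG3.

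**Figure D2:**
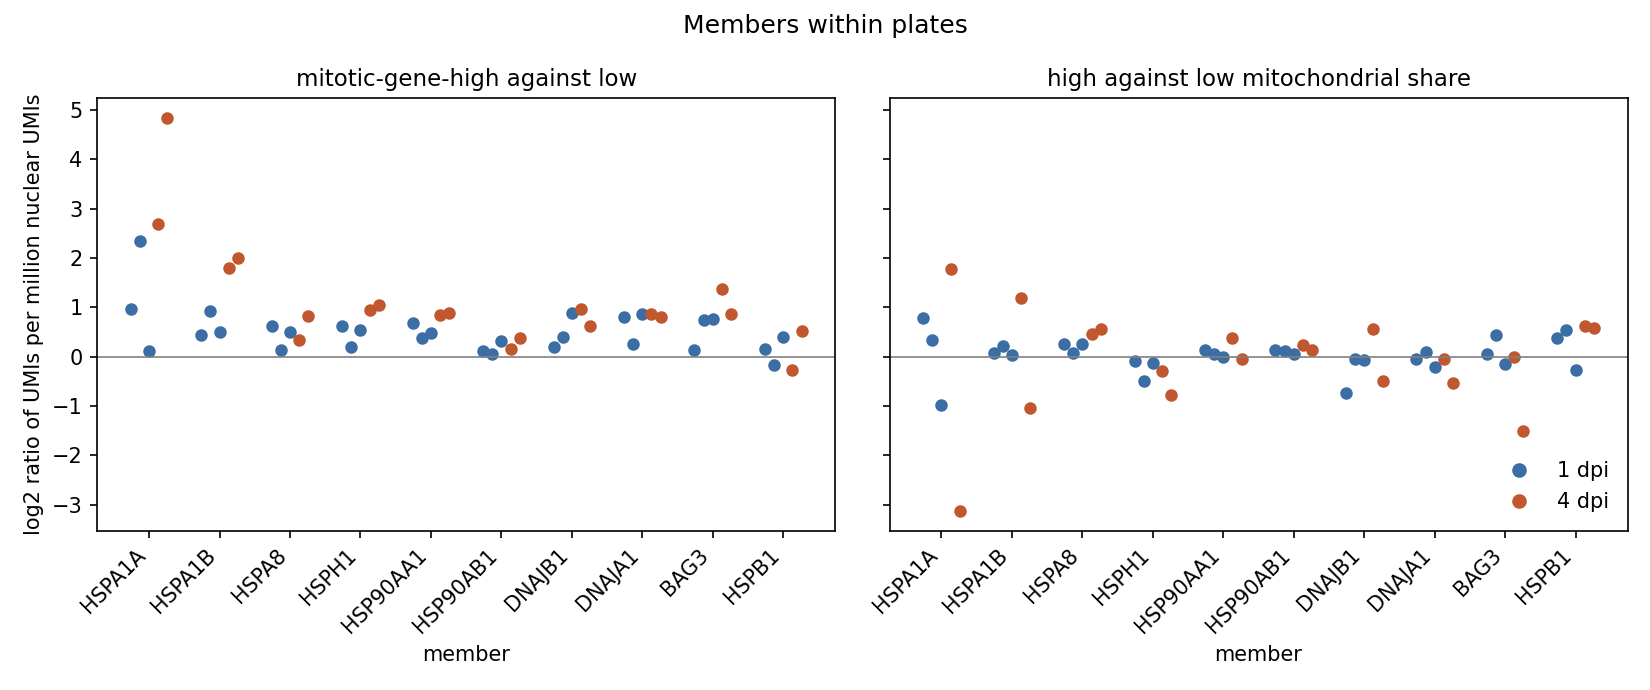
Log2 ratio of each member's nuclear CPM between groups of cells in each plate (blue 1 dpi, orange 4 dpi; the line is 0), for mitotic-gene-high against low cells and for high against low mitochondrial share. In the first comparison the points of 9 members lie above 0 in all 5 plates, and HSPB1 lies on both sides.

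Among related lists in the mitotic comparison, 4 of 13 other cytosolic heat shock genes were higher, led by HSPA2 (log2 1.65, adjusted p = 0.00018), and DNAJB2 was lower (log2 -0.65). Of 22 co-chaperones 6 were higher, led by CACYBP (log2 0.68). SERPINH1, a collagen chaperone induced by HSF1, was higher (log2 0.86), and SQSTM1, an autophagy receptor, lower (log2 -0.90). Of 17 ER chaperones 5 were lower, where 7.17% of all genes were, led by DNAJB9 (log2 -0.87). In the mitochondrial list HSPE1 led with log2 0.59 and in TRiC and prefoldin TCP1 with 0.43, each list having 2 genes higher of 13. Proteasome genes were higher in 2 of 32 (PSMC3, log2 0.30), and immediate-early genes in 6 of 32 (CTGF, log2 1.24) with 5 lower (KLF2, log2 -1.07). Colon epithelial markers were lower in 4 of 8, led by KRT19 (log2 -0.83).

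Against mitochondrial share, HSPA8, HSP90AB1 and HSPB1 were higher where the mitochondrial share was high, and 0 of 10 members passed as lower by edgeR (1 at an unadjusted p below 0.05; 0 by DESeq2). Cells above the median mitochondrial share of their plate were compared with the rest over nuclear genes, again with the plate as a block. These are 3 of 10 members, where 10.5% of 11003 genes were higher and 9.5% lower. HSPA8 was at 2026, 1788, 2012, 1737 and 1841 CPM in cells of high share in plates 6, 7, 8, 10 and 11, against 1687, 1702, 1691, 1270.5 and 1242, and higher in 5 of 5 plates, most in plates 10 and 11 (log2 0.43, SE 0.08, adjusted p = 0.0046). HSPB1 was at 212, 243, 172, 414 and 305 against 163, 167, 208, 268 and 204, higher in 4 of 5 plates and lower in plate 8 (log2 0.49, SE 0.13, adjusted p = 0.019); leaving out plate 6, 7 or 10, taking a maximum of 15% or dropping the plate block ended this call, with log2 still 0.42 to 0.53 and adjusted p between 0.053 and 0.15. HSP90AB1 was higher in 5 of 5 plates (log2 0.25, SE 0.07, adjusted p = 0.022), a call lost without plate 6, 7, 10 or 11 (adjusted p up to 0.098), in thinned cells (0.053), with DESeq2 (0.061), with a maximum of 15% (0.13) and without the plate block (0.095), with log2 still 0.23 to 0.26 in these settings. Over the alternatives run, adjusted p was 0.0018 to 0.036 for HSPA8, 0.0036 to 0.15 for HSPB1 and 0.016 to 0.13 for HSP90AB1. HSPA1A was at 15.3, 23.8, 14.8, 66.1 and 14.8 against 8.92, 18.8, 29.3, 19.3 and 129.5, higher in 3 plates and lower in 2 (log2 -0.12, SE 0.50, adjusted p = 0.89). HSPH1 was lower in all 5 plates without passing (log2 -0.23, SE 0.11, adjusted p = 0.14), and HSP90AA1 missed the threshold (log2 0.22, 0.064) but passed without each plate's top HSPA1A cell (0.25, 0.024).

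Cells of high mitochondrial share were shallower in plates 6, 8 and 10, with median depths of 21400.5, 32164, 19336, 19911 and 16476 against 30238, 32025, 24962, 26376 and 16630 nuclear UMIs; HSPA8 passed in thinned cells too (log2 0.36, adjusted p = 0.019). Across the 132 to 228 cells of a plate, which share 1 library, Spearman's rho with mitochondrial share was -0.11 to 0.103 for HSPA1A and -0.214 to -0.0984 for HSPH1. For HSPA8 it was 0.293 and 0.358 in plates 10 and 11 and at most 0.0724 at 1 dpi. In plates 6, 7, 8, 10 and 11 it was -0.00338, -0.0397, -0.215, -0.318 and -0.29 for BAG3 and -0.305, -0.157, -0.121, -0.00642 and -0.0319 for DNAJB1. Whether the effect of mitochondrial share differed between the times was tested as an interaction. None of the 10 members passed (0 by edgeR). At an unadjusted p below 0.05 there were 2, HSPA8 and BAG3, and DESeq2 was not run. Of all genes, 2.68% had a more positive and 4.48% a more negative difference of high minus low share at 4 dpi. Either sign can mean a weaker or a stronger difference. The values for HSPA8 were log2 0.33 (adjusted p = 0.12) and for BAG3 -0.89 (0.096). Without plate 10, HSPA1A (-3.17, 0.0017), HSPA1B (-1.16, 0.049) and BAG3 (-1.63, 0.0076) passed, when well 277 of plate 11, at 4.33% mitochondrial UMIs, was in the only plate of 4 dpi.

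Other lists were counted by mitochondrial share beside the 10.5% higher and 9.5% lower of all genes, with no test of a list as a group. Mitochondrial chaperones were higher in 5 of 13, led by HSPE1 (log2 0.75, adjusted p = 0.0024), with GRPEL2 lower (log2 -0.39). ER chaperones were higher in 7 of 17, led by PDIA4 (log2 0.69), with DDIT3 lower (log2 -0.81). Proteasome genes were higher in 8 of 32 (PSMA2, log2 0.52) and TRiC and prefoldin in 3 of 13 (CCT3, log2 0.33). Immediate-early genes were lower in 11 of 33, led by KLF10 (log2 -1.22), and the HSF list in 4 of 13, led by CHORDC1 (log2 -0.58), with HSBP1 higher (0.39). The other cytosolic heat shock genes had HSPB11 higher (log2 0.67) and 2 of 12 lower, led by HSPA4L (-0.58). Co-chaperones had 2 of 22 higher, led by CACYBP (log2 0.68), and 2 lower, led by CDC37L1 (-0.65). Colon epithelial markers had 3 of 8 higher, led by KRT8 (log2 0.34), and CDX2 lower (-0.58), and of 34 mitotic genes BIRC5 was higher (0.81) and 2 were lower, led by AURKA (-0.64).

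Wells with more than 2000 genes that failed at 25% mitochondrial UMIs or more numbered 25 in plate 10 and 30 in plate 11, and 1, 3 and 1 in plates 6, 7 and 8, so they were compared with passing cells in the plates of 4 dpi only. Of the 10 members 7 passed as lower, where 4.98% of 11014 genes were lower and 5.69% higher, but this count is not read against those shares. The failing wells of plates 10 and 11 held 1 and 1 UMIs of HSPA1A, 2 and 3 of HSPA1B and 0 and 2 of BAG3, so these members entered the test through the passing cells alone, and nothing is concluded for them. HSPH1, DNAJA1, DNAJB1 and HSP90AA1 remain; HSPA8, HSP90AB1 and HSPB1 did not pass. HSPH1 was at 116 and 104 CPM in failing wells against 255 and 269 in passing cells (log2 -1.26, SE 0.22, adjusted p = 0.0007). DNAJA1 was at 174 and 88.4 against 296 and 312 (log2 -1.21, SE 0.23, adjusted p = 0.0014). DNAJB1 (log2 -0.85) and HSP90AA1 (-0.43) were lower in both plates with adjusted p of 0.0073 and 0.035. HSPA8 was at 1892 and 1550.0 against 1468 and 1522 (log2 0.18, SE 0.12, adjusted p = 0.37). Failing wells were shallow, with medians of 6931 and 5082 nuclear UMIs against 22172 and 16630. Without the top HSPA1A cells, HSP90AA1 (log2 -0.30, adjusted p = 0.15) and DNAJB1 (-0.57, 0.079) no longer passed, whereas HSPH1 and DNAJA1 did. In thinned cells HSPH1 (log2 -0.76, 0.18) and DNAJA1 (-0.85, 0.074) did not pass, nor did DNAJB1 (0.25) or HSP90AA1 (0.093). Over all alternatives the adjusted p was 4.0e-07 to 0.18 for HSPH1 and 1.9e-07 to 0.074 for DNAJA1. DESeq2 called HSPH1 and DNAJA1 lower.

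In the same wells 8 of 13 TRiC and prefoldin subunits passed as lower, led by CCT4 (log2 -1.18, adjusted p = 7.0e-05), 10 of 32 proteasome genes, led by PSMD6 (-1.57), and 2 of 13 other cytosolic heat shock genes, led by HSPA4 (-0.68). The mitochondrial chaperone TRAP1 was higher (0.70). The list counts in these shallow wells were not repeated in thinned cells or with DESeq2, where fewer genes passed in all. Of 32 immediate-early genes 18 passed as lower, of 22 co-chaperones 2, of 14 genes of the HSF list 4 and of 17 ER genes 5; of 34 mitotic genes 3 passed as lower and 2 as higher. The leading genes of these last lists (GADD45B, CHORDC1, DNAJB9 and HMMR lower, HSF4 and GTSE1 higher) had few UMIs in the failing wells, so their sizes are not given and the counts are not read further.

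Cells with an HSPA1A UMI were next compared with cells with 0 in the same plate, 30, 27, 25, 24 and 25 cells in plates 6, 7, 8, 10 and 11 against 108 to 198, leaving HSPA1A and HSPA1B out. DNAJB1 and BAG3 were higher, 2 of the 8 members tested, where 0.317% of 10739 genes were higher and 0.205% lower. DNAJB1 was at 692, 595, 593, 454 and 492 CPM in cells with HSPA1A in plates 6, 7, 8, 10 and 11 against 369, 461, 459, 241 and 252, higher in 5 of 5 plates (log2 0.70, SE 0.11, adjusted p = 0.0072). BAG3 was at 84.7, 67.2, 86.1, 75.9 and 89.4 against 40.03, 48.1, 52.3, 26.6 and 46.9, also in 5 of 5 plates (log2 0.92, SE 0.15, adjusted p = 0.0098). DNAJA1 was higher in 5 plates and missed the threshold (log2 0.53, adjusted p = 0.068). Without each plate's top HSPA1A cell both calls were lost, at log2 0.29 for DNAJB1 (0.37) and 0.45 for BAG3 (0.29). They were also lost without plate 6 (0.056 and 0.066). Adjusted p ranged over 4.2e-05 to 0.56 for DNAJB1 and 0.0007 to 0.42 for BAG3 across alternatives. In thinned cells DNAJA1 (log2 1.02), HSPH1 (1.02) and HSP90AA1 (0.69) passed and BAG3 did not. Cells with HSPA1A were deeper in plates 7, 8, 10 and 11 and level in plate 6, with medians of 26808, 34261, 32744, 32745 and 21099 against 26730, 31681, 20797, 20269.5 and 15304 nuclear UMIs.

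Of the 56 genes called, 55 went the same way in all 5 plates, 34 higher and 21 lower. The 10 with the largest rise were LST1 (log2 1.76), EGR1 (log2 1.21), ASPM (log2 1.14), NEDD9 (log2 1.11), KIF14 (log2 1.08), BMP2 (log2 1.06), EGR2 (log2 1.03), TICAM1 (log2 1.02), SLC22A20 (log2 1.01) and GADD45B (log2 0.97), with adjusted p between 0.0024 and 0.049. EGR1, EGR2 and GADD45B are early-response genes and ASPM and KIF14 act in mitosis. Without the top cells EGR1 did not pass (log2 0.65, adjusted p = 0.51) and ASPM did (1.00, 0.0063), as did KIF14, TICAM1, SLC22A20 and GADD45B. In thinned cells, where few cells carried HSPA1A and the top cells were kept, EGR1 (1.55, 0.00015) and GADD45B (1.55, 0.0047) passed. ASPM (0.80, 0.72) and KIF14 (0.74, 0.87) did not pass there. The 5 with the largest fall were ALDH1L2 (-3.01), LOC100507537 (-2.78), KRT23 (-1.29), BIVM (-1.11) and PCDH19 (-0.92). Cells with HSPA1A are the smaller group, where a rare gene can have few UMIs and give a large fall. The falls of ALDH1L2 and LOC100507537 are therefore not read further. Without the top cells BIVM (log2 -1.05, 0.055) and PCDH19 (-0.86, 0.077) did not pass, nor did KRT23 in thinned cells (-0.99, 0.75), where the other 4 were not tested. Of the risers LST1 (1.70, 0.077), NEDD9 (1.11, 0.058), BMP2 (1.11, 0.054) and EGR2 (0.90, 0.19) did not pass without the top cells either. LST1, NEDD9, BMP2, TICAM1 and SLC22A20 were not tested in thinned cells, and EGR2 (1.46, 0.091) did not pass there. Of the fixed lists, immediate-early genes were higher in 6 of 33, mitotic genes in 3 of 34, the HSF list in 1 of 13 (IER5, log2 0.83) and other cytosolic heat shock genes in 1 of 12 (DNAJA4, log2 0.69).

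Cell by cell within a plate, HSPA8, HSP90AA1 and HSP90AB1 had the highest median correlations among the members. Spearman's rho over the cells of a plate, which share a library but differ in depth, was 0.433 to 0.587 for HSPA8 with HSP90AB1, 0.306 to 0.52 for HSPA8 with HSP90AA1, 0.392 to 0.527 for both HSP90 genes and 0.316 to 0.533 for HSP90AA1 with DNAJA1. HSPA8 with DNAJA1 gave 0.432, 0.463 and 0.404 at 1 dpi and 0.0465 and 0.0681 at 4 dpi, and DNAJB1 with BAG3 0.248, 0.368 and 0.421 against -0.00492 and -0.00983; neither difference was tested. HSPA1A with HSPA1B gave 0.106 to 0.261, weak values in sparse counts. The genes most like HSPA1A by median rho over the plates, among 4243 genes with at least 1 UMI per cell on average, were TOR1AIP2 (0.221), LGALS8 (0.213), EGR1 (0.201), HSP90AA1 (0.193), GADD45B (0.193), IER5 (0.191), ATP1B1 (0.191), CCNL1 (0.19), SDCBP (0.187) and DNAJB1 (0.183). HSP90AA1 and DNAJB1 are the members among them, and all values are low.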

How the data were processed

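Per the labels, SORT-seq libraries of 5 plates were sequenced and the authors deposited whole-number UMI counts per gene and well; their notes name BWA and hg38, and no BWA version is stated. The members and gene lists were chosen with earlier results of these data known. Genes in all files and in at least 10 wells were kept, ERCC spike-ins were left out of totals, and passing cells had more than 2000 genes and under 25% mitochondrial UMIs. UMIs were summed per plate, or per plate and group of cells, and tested with edgeR 4.0.16 (quasi-likelihood F test, TMM, filterByExpr, 2-sided, Benjamini-Hochberg over all genes, 0.05) in R 4.3.3; DESeq2 1.42.0 was an alternative, with other filters, thinning, splits, scaling, blocks and left-out plates. SE is the log2 value over the root of F. Descriptions used Python 3.11.15, numpy 2.4.6, pandas 2.3.3, scipy 1.17.1 and matplotlib 3.10.9. The fits were tested on simulated data, from which no result is given here. Lists beside the members were other cytosolic heat shock genes, co-chaperones, HSF regulators and response, TRiC and prefoldin, mitochondrial and ER chaperones, immediate-early, proteasome and mitotic genes, and colon epithelial, leukocyte and stromal markers. Named genes are all members, the called gene of each list with the largest rise and fall (except immediate-early genes between 4 and 1 dpi, part of the rule), the 10 risers and 5 fallers of the HSPA1A comparison going 1 way in all plates, and the 10 genes most like HSPA1A; others were chosen after their values were seen.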

Additional observations from a re-analysis of the deposited data

Results flagged for a closer look

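The difference between cells of high and low mitochondrial share itself differed between 4 and 1 dpi for 788 of 11003 genes (interaction, edgeR, adjusted p below 0.05), and none of the 10 members was among them. Without plate 11 the number was 131. The difference of high minus low share was more negative at 4 dpi in 7 of 17 ER chaperones, led by DNAJB9 (log2 -2.33). It was more positive in 12 of 34 mitotic genes, led by KIF20A (1.73). Among heat shock relatives DNAJA2 (-0.84) and SQSTM1 (-1.69) were more negative and CACYBP (0.63) more positive. HSPA9 (-0.60), KRT19 (-0.80) and 4 of 32 proteasome genes, led by PSMD14 (-0.70), were more negative too. Of 33 immediate-early genes 4 were more positive, led by BTG2 (1.67), and 6 more negative, led by KLF2 (-2.60). Either sign can mean a weaker or a stronger difference. The cause was not tested.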

How the results depend on the processing

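Genes called between 4 and 1 dpi numbered 3484 of 12610 tested, against 2 with spike-in scaling and 1104 of 8852 tested in thinned cells. By mitochondrial share 2196 were called, against 1444 with DESeq2, 574 in thinned cells, 951 with a maximum of 15%, 695 without the plate block and 1019 to 1928 when 1 plate was left out. Its interaction with time gave 788, and 131 to 665 leaving out 1 plate. Failing wells gave 1176, against 231 with DESeq2 and 406 thinned. The HSPA1A comparison gave 56, against 120 with no filter on low counts, 12 thinned, 27 with a maximum of 15%, 1 without the block, 31 without the top cells and 11 to 73 leaving out 1 plate. The mitotic comparison gave 1648, against 940 with DESeq2, 448 thinned and 1095 to 1375 leaving out 1 plate. The mean share of cells with HSPA1A was 6.46% thinned and 16.2% unthinned. The cause was not tested.

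Directions turned as follows, as log2 values. BAG3 at 4 against 1 dpi was 0.13 with a maximum of 15% and -0.50 to 0.046 leaving out 1 plate. By mitochondrial share, HSPA1B was -0.44 between the top and bottom of 3 equal groups of cells and DNAJA1 0.012 thinned; leaving out 1 plate gave -0.70 to 0.64 for HSPA1A, -0.11 to 0.48 for HSPA1B, -0.22 to 0.089 for DNAJB1, -0.10 to 0.059 for DNAJA1 and -0.25 to 0.21 for BAG3. In the interaction it gave -3.17 to 1.77 for HSPA1A, -1.16 to 1.12 for HSPA1B, -0.12 to 0.34 for HSP90AA1, -0.22 to 0.87 for DNAJB1 and -0.49 to 0.043 for DNAJA1. HSP90AB1 was -0.0002 in the HSPA1A comparison without the top cells. No member turned in the mitotic comparison or in failing wells under the alternatives run. Leaving out 1 plate was not run for failing wells, which fill 2 plates, nor equal groups by HSPA1A, since too few cells carry it; where 1 plate of 4 dpi remains it is assumed to vary like the others. Leaving out the top HSPA1A cells was chosen after seeing the data. Among left-out plates, the interaction count was lowest without plate 11 and the mitochondrial count without plate 10. Few UMIs per cell limit HSPA1A, HSPA1B and BAG3.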

Other observations

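HSPA6 counts outside the cells with 20 or more HSPA1A UMIs were few. The plates held 14, 29, 68, 43 and 20 HSPA6 UMIs in 6, 5, 6, 5 and 7 cells, of which 0, 24, 60, 39 and 3 lay in those cells, for plates 6, 7, 8, 10 and 11. DNAJA4, a J-domain gene outside the 10, was 3.34, 7.16, 5.97, 14.3 and 17.1 times the rest of the plate in wells 252, 134, 340, 278 and 277, above 1 in all 5 cells, and IER5 was 2.54, 8.40, 6.17, 9.23 and 5.02 times. SERPINH1 was 2.57, 0, 0, 4.49 and 27.9 times and CHORDC1 3.39, 0.456, 0, 6.79 and 16.8 times, in the same order. The cells and these genes were chosen after their values were seen, and no test was made.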
